A study of Mus musculus with 12 samples.

Results

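The comparison set mouse kidney collecting duct cells that had received an siRNA against TAZ beside cells with a control siRNA, both under dDAVP. The libraries were taken by their labels: the 3 libraries with TAZ siRNA and dDAVP and the 3 with control siRNA and dDAVP, 6 of the 12 libraries of the series. The cells were mpkCCDc11, 1 mouse cell line of the cortical collecting duct, grown for 3 days on semipermeable filters and then kept for 24 h without serum and hormones. dDAVP, a synthetic vasopressin analogue that acts on the V2 receptor, was given at 1e-09 M to the basolateral side of all 6 cultures. Exposures of 15 min, 30 min and 24 h are listed in the labels, without a statement of which applies here. The control libraries carry the genotype label WT and the others the label TAZ knockdown. The transfection reagent was DharmaFECT4, no sequence of an siRNA was used here, and the knockdown was partial. The other 6 libraries, with vehicle in place of dDAVP and 3 per siRNA, served as a side comparison. The series asked how TAZ bears on aquaporin-2. The labels do not tie the 3 libraries of a group to 3 independent cultures, so the p-values reflect library-to-library spread, part of which may be technical.

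TAZ, encoded by Wwtr1, is a transcriptional coactivator of the Hippo pathway. The kinases of that pathway hold TAZ and its paralogue YAP in the cytoplasm, and in the nucleus both bind TEAD factors on DNA. In the principal cells of the collecting duct, vasopressin binds the V2 receptor (Avpr2), raises cAMP, drives transcription of the water channel gene Aqp2 and moves the channel to the apical membrane. The epithelium rests on a basement membrane of type IV collagens, laminins and perlecan. Glycolytic enzymes and a set of hypoxia genes are classic targets of the transcription factor HIF-1, whose level the prolyl hydroxylases encoded by Egln1 and Egln3 control.

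The 3 control libraries held 55232000 to 61505600 counts and the 3 TAZ siRNA libraries 59448800, 47393500 and 45095300. Levels are given as CPM, the count of a gene relative to the TMM-scaled library total, in replicates 1, 2 and 3, and levels of different genes are compared only in the authors' TPM, which allow for transcript length. The share of counts in mitochondrial messenger RNA was 4.10 to 4.49% with control siRNA and 4.12 to 4.34% with TAZ siRNA. On the third principal component, which held 9.67% of the variance, TAZ siRNA replicate 2 scored -32.2 and replicate 3 20.4. Deviations from the group mean went with transcript length in TAZ siRNA replicate 2 (Spearman correlation across genes 0.535) and control replicate 1 (0.473), and against it in TAZ siRNA replicate 1 (-0.39) and control replicate 2 (-0.42). Over all 15932 genes tested the fold change itself had a Spearman correlation of 0.0093 with length. The library values used only genes with a mean log2 CPM above 3, so they are not over the same genes. Epithelial and collecting duct markers were present in all 6 libraries, with Cdh1 at 1220 to 1280 CPM, Krt8 at 830 to 975 and Hsd11b2, the enzyme that shields the mineralocorticoid receptor, at 134 to 159. Of the principal cell markers Aqp4, Elf5 and Fxyd4 stayed under 1 CPM in all 6 libraries, at no more than 0.257, 0.164 and 0.772. Aqp3 and Scnn1b were under 1 CPM in all 3 TAZ siRNA libraries.

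Wwtr1 was lower in each TAZ siRNA library than in any control library. Its main transcript spans 57455644 to 57575876 on chromosome 3 (mm10 coordinates of the transcript table). The level was 174, 161 and 164 CPM with control siRNA and 108, 127 and 109 CPM with TAZ siRNA, so that replicate 2 kept the most. The change was -0.54 ± 0.05 (log2 fold change ± SE, adjusted p = 5.54e-06, from edgeR's quasi-likelihood F test after Benjamini and Hochberg), and 68.6% of the control mean remained. The vehicle libraries gave -0.63. Yap1, the gene of the paralogue, stood at 173, 174 and 174 CPM against 176, 174 and 166 (-0.01 ± 0.03, adjusted p = 0.837). The gene that the files call Taz encodes tafazzin, a mitochondrial enzyme of cardiolipin remodelling, and is not the target (-0.09 ± 0.06, adjusted p = 0.431).

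Of 15932 genes tested, 1711 were called at an adjusted p under 0.05, which is 10.7%. TAZ siRNA raised 919 of them (5.77% of the genes tested) and lowered 792 (4.97%). Most changes were small: the median size over the called genes was 0.22 on the log2 scale. At least 2-fold changes were more often falls, with 40 genes lower and 22 higher, and at least 1.5-fold changes comprised 106 lower and 60 higher. The 3 TAZ siRNA libraries did not overlap the 3 control libraries in 912 of the 919 genes called higher and 783 of the 792 called lower. Without overlap stood 28.8% of all genes tested, 15.1% above and 13.8% below. Leaving out control replicate 2 or 3 or TAZ siRNA replicate 1 or 3 lowered the count of called genes to 1114, 1049, 1054 and 1110.

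**Figure D1:**
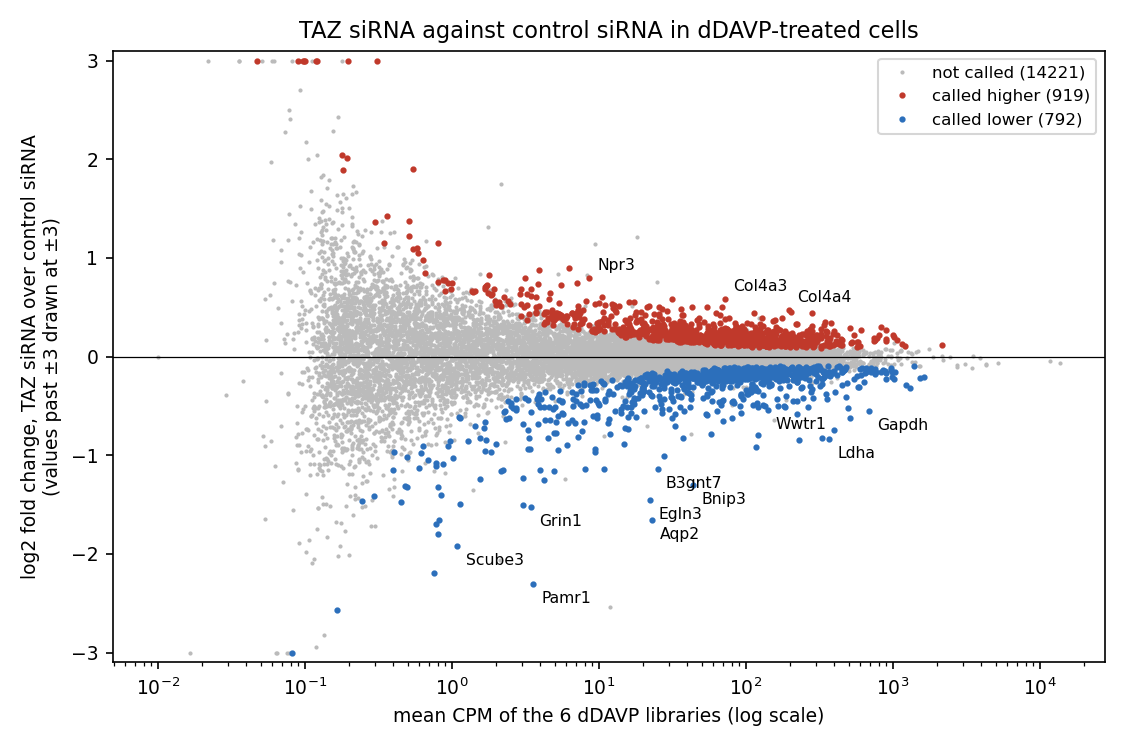
Each point is 1 of the genes tested, with its mean CPM over the 6 dDAVP libraries on the x axis (log scale) and its log2 fold change of TAZ siRNA over control siRNA on the y axis. Red points were called higher (919) and blue points lower (792), and Pamr1, Scube3 and Aqp2 stand lowest among the labelled genes.

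Aqp2, the gene of the vasopressin-regulated water channel, fell to less than any control library in all 3 TAZ siRNA libraries. It lies on chromosome 15 from 99579056 to 99584545. The level was 44.8, 29.3 and 30.0 CPM with control siRNA and 10.3, 13.7 and 9.11 CPM with TAZ siRNA. Control replicate 1 was the highest of all, and TAZ siRNA replicate 2, the library with the most Wwtr1, was the highest of its group. The change was -1.66 ± 0.21 (adjusted p = 0.000555), which left 31.8% of the control mean, and it rested on 6036 against 1669 counts. With vehicle the same gene had only 55 and 9 counts over 3 libraries each (adjusted p = 0.15), and the difference between the effects was not called (adjusted p = 0.84).

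The V2 receptor gene Avpr2, on chromosome X from 73891765 to 73894428, fell as well. Its libraries were at 47.9, 42.8 and 44.3 CPM with control siRNA and at 36.4, 35.5 and 33.3 CPM with TAZ siRNA. The groups did not overlap, and the change was -0.36 ± 0.07 (adjusted p = 0.00356). Scnn1a, which codes for the alpha chain of the sodium channel ENaC (chromosome 6, 125321340 to 125344943), went the other way. It rose from 91.2, 90.2 and 88.9 CPM to 118, 112 and 112 CPM, which is 0.34 ± 0.03 (adjusted p = 5.54e-06). The beta and gamma subunits of the same channel were not called. Scnn1b stood at 0.910 to 1.20 CPM with control siRNA and 0.504 to 0.722 CPM with TAZ siRNA (-0.72, adjusted p = 0.153), and Scnn1g changed by -0.35 on the log2 scale with an adjusted p of 0.207. Aqp3, the basolateral water channel, was near 1 CPM in the controls and had a log2 fold change of -0.89 ± 0.28 with an adjusted p of 0.0513.

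Over the principal cell transport list as a whole, 18 of 21 genes were tested, 1 rose and 2 fell (16.7% against 10.7% of all genes), and the median log2 fold change was -0.129, against 0.00252 over all genes tested. DESeq2 called 6 members lower, and limma-voom, the fit with no low-count filter, the replicate block and the fit of the 2 groups alone called 4 each. Scnn1a in TAZ siRNA cells with dDAVP lay between the 88.9 to 91.2 CPM of control cells with dDAVP and the 128 to 129 CPM of control cells with vehicle. The same control libraries with dDAVP enter its fold change, and its effects with dDAVP and with vehicle were not called different.

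**Figure D2:**
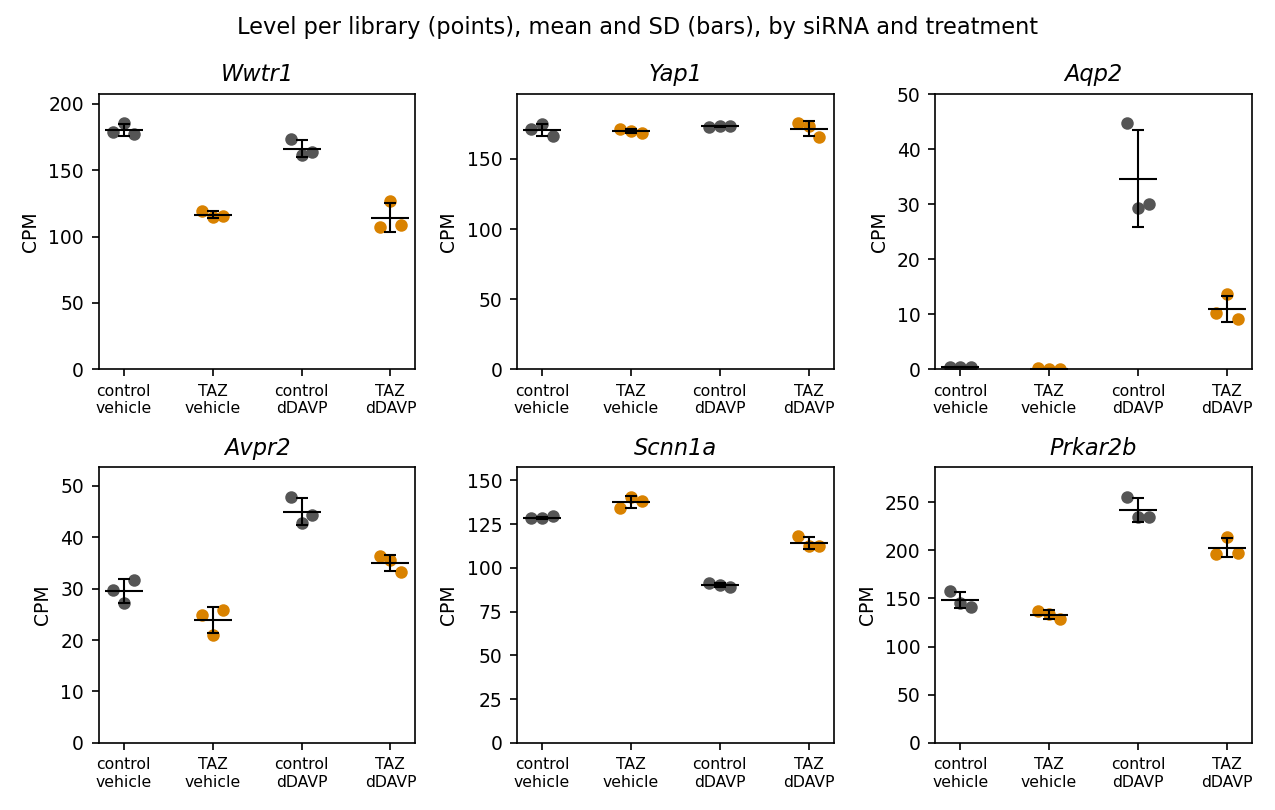
CPM of Wwtr1, Yap1, Aqp2, Avpr2, Scnn1a and Prkar2b in each of the 12 libraries (points, grey for control siRNA and orange for TAZ siRNA), with the mean and SD of the 3 libraries of a group. Aqp2 in TAZ siRNA cells with dDAVP sits between 9.11 and 13.7 CPM, below all 3 control libraries with dDAVP.

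Of 33 genes of V2 receptor signalling and AQP2 trafficking 0 rose and 2 fell, Avpr2 and Prkar2b, which is 6.06% called, beside 10.7% of all genes (4 fell in DESeq2). In 7 of the 33 members all TAZ siRNA libraries lay below all control libraries and in 1 above, beside 13.8% and 15.1% of all genes. Prkar2b encodes a regulatory subunit of protein kinase A. It stood at 256, 235 and 235 CPM with control siRNA and 196, 214 and 197 CPM with TAZ siRNA (-0.26 ± 0.05, adjusted p = 0.00152). Of 23 targets of cAMP and CREB, 1 rose and 4 fell (21.7%, beside 10.7% of all genes). The stress factor Atf3 rose from 8.29, 7.09 and 8.96 CPM to 11.8, 11.7 and 11.9 CPM (0.54 ± 0.10, adjusted p = 0.00219). Cited2, a coregulator that binds CBP and p300, fell by 0.16 (adjusted p = 0.00447). The count of members that fell was 1 or 2 when any library but TAZ siRNA replicate 2 was left out.

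Among 30 tested transcription factors linked to Aqp2, 4 rose and 3 fell (23.3% against 10.7% of all genes). Pax2, a transcription factor of the developing and adult collecting duct, rose from 153, 150 and 159 CPM to 183, 191 and 185 CPM (0.27 ± 0.03, adjusted p = 3.8e-05). Jun, a subunit of AP-1, and the ETS factor Ets2 fell, by 0.23 and 0.16 (adjusted p = 0.00238 and 0.00578). The 3 well-known candidates did not pass: Gata3 had -0.16 (adjusted p = 0.0605), Elf3 -0.11 (0.0837) and the tonicity factor Nfat5 0.14 (0.0963). DESeq2 and the fit of the 2 groups alone called 8 members lower, the replicate block called 6, and 5 were lower without TAZ siRNA replicate 2. In the 5 other fits that each left out 1 library 2 members rose, as with no low-count filter and with the 2 groups alone.

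Genes of glycolysis and of the hypoxia response fell together. Of 28 members 26 were tested (Slc16a3 and Car9 were too low), and 23 of them were called lower and 0 higher, which is 88.5% of those tested against a background of 4.97% called lower. The median log2 fold change was -0.599, and 25 of the 26 members had all 3 TAZ siRNA libraries below all 3 control libraries, against 13.8% of all genes. The number called lower was 23 or 24 in each alternative fit, with 0 higher.

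Ldha, the lactate dehydrogenase subunit that turns pyruvate into lactate, had one of the smallest p-values of the whole table. It lies on chromosome 7 from 46845804 to 46855627. Its libraries were at 437, 504 and 482 CPM with control siRNA and at 259, 276 and 260 CPM with TAZ siRNA, with a wide gap between the groups. The change was -0.84 ± 0.06 (adjusted p = 4.84e-07), to 55.9% of the control mean. In TPM its level went from 762 to 434.

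The enzymes were lowered along almost the whole path from glucose to lactate. Slc2a1, the glucose transporter GLUT1, fell by 0.40 on the log2 scale and the hexokinase Hk2 by 0.45. The other hexokinase gene, Hk1, stood at 321 to 342 CPM and 334 to 344 CPM (0.01, adjusted p = 0.877). Pfkl, a subunit of phosphofructokinase, which commits sugar to glycolysis, was at 391, 442 and 423 CPM and then at 226, 260 and 223 CPM (-0.82 ± 0.06, adjusted p = 2.31e-06). Pfkp, the platelet-type subunit, fell by 0.62 and the aldolase Aldoa by 0.75. Further down the path Tpi1 changed by -0.62, Gapdh by -0.55, Pgk1 by -0.84, Eno1 by -0.52 and Pkm, pyruvate kinase, by -0.32. Gapdh, often used as a reference gene, was at 770, 866 and 814 CPM with control siRNA and 570, 550 and 549 CPM with TAZ siRNA (adjusted p = 7.9e-06). Pdk1, the kinase that inhibits pyruvate dehydrogenase in the mitochondria, fell from 139, 158 and 159 CPM to 73.3, 93.5 and 75.1 CPM (-0.91 ± 0.08).

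Of the hypoxia genes outside glycolysis, Egln3, Bnip3 and Ankrd37 had the largest falls of the list. Egln3, an oxygen-sensing prolyl hydroxylase, was at 24.2, 36.1 and 37.8 CPM and fell to 10.4, 15.1 and 10.4 CPM (-1.45 ± 0.24, adjusted p = 0.00504). Bnip3, a mitophagy receptor on chromosome 7 from 138890836 to 138909506, was at 53.5, 63.3 and 69.3 CPM and fell to 22.5, 31.0 and 22.1 CPM (-1.30 ± 0.17, adjusted p = 0.00134). Ankrd37, a small ankyrin protein and HIF target, was at 3.96, 6.94 and 6.88 CPM and fell to 2.22, 3.1 and 2.16 CPM (-1.25 ± 0.27, adjusted p = 0.00772). In all 3 of these genes control replicate 1 was the lowest control and TAZ siRNA replicate 2 the highest of its group. The groups did not overlap, which the rule that named these genes by size required. Vegfa, the endothelial growth factor, fell by 0.62 (adjusted p = 1.84e-05) and Egln1 by 0.55 (adjusted p = 1.75e-05). Adm, adrenomedullin, was at 0.360 to 0.619 CPM against 0.191 to 0.221 CPM and was not called (-1.21, adjusted p = 0.0643). The messenger RNA of HIF-1alpha itself, Hif1a, stood at 416, 398 and 398 CPM against 363, 394 and 363 CPM (-0.11 ± 0.05, adjusted p = 0.17).

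**Figure D3:**
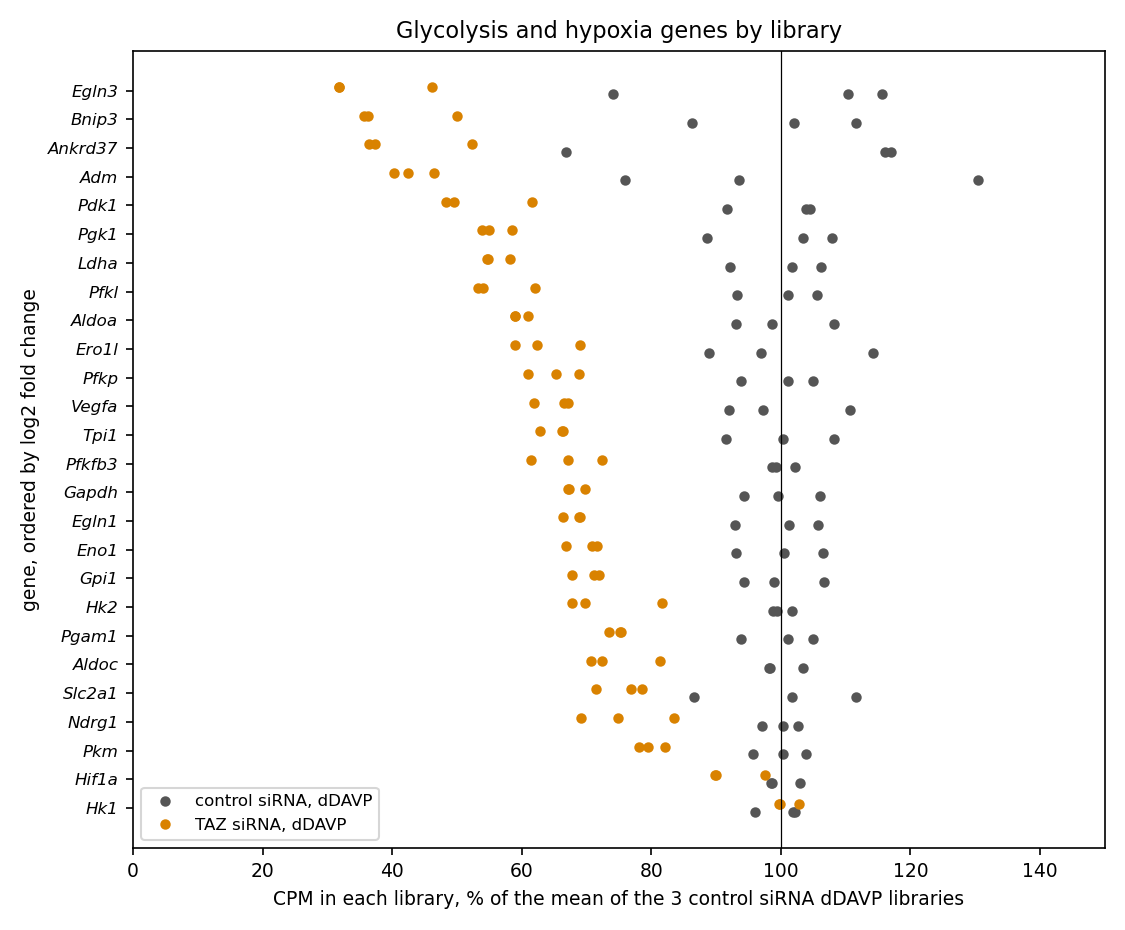
Each row is 1 of the 26 tested genes of glycolysis and hypoxia, ordered by fold change, and each point 1 library, as % of the mean CPM of the 3 control siRNA libraries with dDAVP. The orange points of TAZ siRNA lie left of the grey control points in 25 of the 26 genes, and Hk1 is the exception.

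The promoters of 4 of these genes are shown because ACGTG is the usual core of a HIF site and 23 members of the list fell. On the opposite strand that core reads CACGT. Sequences are the 250 bases before the transcription start in RefSeq on GRCm38.p6, 5′ to 3′ on the strand of the gene, with matches to the core on either strand in capitals. In CACGTG both forms overlap and were counted as 1 match.
Ldha, chr7:46845554-46845803, plus strand: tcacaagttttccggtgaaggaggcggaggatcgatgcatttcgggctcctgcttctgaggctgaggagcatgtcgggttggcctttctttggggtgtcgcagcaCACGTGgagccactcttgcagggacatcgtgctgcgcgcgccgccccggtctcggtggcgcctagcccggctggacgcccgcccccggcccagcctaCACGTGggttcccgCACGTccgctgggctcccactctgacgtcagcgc
Pgk1, chrX:106186850-106187099, plus strand: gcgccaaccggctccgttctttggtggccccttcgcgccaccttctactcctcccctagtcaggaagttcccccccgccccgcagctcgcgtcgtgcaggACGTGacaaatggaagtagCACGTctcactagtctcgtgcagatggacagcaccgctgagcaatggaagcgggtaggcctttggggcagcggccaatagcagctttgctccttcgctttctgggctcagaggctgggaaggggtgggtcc
Bnip3, chr7:138909507-138909756, minus strand: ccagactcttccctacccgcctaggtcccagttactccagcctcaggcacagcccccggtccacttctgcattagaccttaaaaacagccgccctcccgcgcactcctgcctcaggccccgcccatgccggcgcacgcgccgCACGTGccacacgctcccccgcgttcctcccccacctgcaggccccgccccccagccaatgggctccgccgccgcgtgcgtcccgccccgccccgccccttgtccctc
Egln3, chr12:54203875-54204124, minus strand: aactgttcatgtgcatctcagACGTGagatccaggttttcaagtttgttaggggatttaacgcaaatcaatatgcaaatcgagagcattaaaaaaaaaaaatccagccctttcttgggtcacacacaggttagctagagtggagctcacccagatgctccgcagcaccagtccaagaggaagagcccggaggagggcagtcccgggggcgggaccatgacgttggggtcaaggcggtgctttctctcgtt

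Ldha held 3 matches, beginning 145, 48 and 34 bases before the start, Pgk1 2 (150 and 131), Bnip3 1 (108) and Egln3 1 (229). Over 300 bases (250 before to 50 after the start), a match was found in 16 of the 22 promoters of the list that could be matched, or 72.7%. The share was 25.9% over the 9964 promoters of genes tested, 34.1% for genes called lower (32.6% of those outside the list) and 21.1% for genes called higher. This motif was chosen after the hypoxia genes had been seen to fall, and a match is a string of letters, not a binding site.

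Genes of the extracellular matrix and the basement membrane mostly rose. Of 32 members 26 were tested, 15 rose and 3 fell, or 69.2% called against 10.7% of all genes. The median log2 fold change was 0.212, and between 12 and 16 members rose across the alternative fits. Of the type IV collagen chains, the network-forming collagens of the basement membrane, 4 rose. Col4a4 (chromosome 1, 82448419 to 82540974) was at 170, 159 and 161 CPM and rose to 229, 222 and 228 CPM (0.47 ± 0.04, adjusted p = 1.78e-06). Its neighbour Col4a3 (chromosome 1, 82586921 to 82722059), whose chain assembles with that of Col4a4, was at 63.1, 54.2 and 55.3 CPM and rose to 85.1, 87.8 and 85.1 CPM (0.58 ± 0.05, adjusted p = 3.11e-06). The other pair of neighbours, Col4a1 and Col4a2 on chromosome 8, rose by 0.33 ± 0.03 and 0.45 ± 0.04. Libraries of the 2 groups did not overlap in any of these 4 genes. Col4a5, the third partner of Col4a3 and Col4a4, stood at 219, 206 and 205 CPM against 215, 223 and 208 CPM (0.04, adjusted p = 0.608).

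Other members rose as well. Hspg2, the proteoglycan perlecan, went from 778, 721 and 716 CPM to 903, 921 and 902 CPM (0.30 ± 0.04, adjusted p = 5.15e-05). The laminin chains Lama5 (0.22) and Lamb3 (0.24), the proteoglycan agrin (Agrn, 0.18) and fibronectin (Fn1, 0.22) were also higher, with adjusted p-values of 0.000245, 0.00064, 0.0004 and 0.00338. P3h2, a prolyl 3-hydroxylase of basement membrane collagen, rose from 39.5, 33.3 and 34.4 CPM to 51.7, 52.5 and 48 CPM (0.51 ± 0.06).

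The 3 members that fell are enzymes that modify collagen and are known hypoxia genes. P4ha1 and P4ha2, subunits of prolyl 4-hydroxylase, fell by 0.57 and 0.67, and Plod2, a lysyl hydroxylase, fell by 0.55 (adjusted p = 0.00125, 8.91e-05 and 9.31e-06). Among the genes with the smallest p-values outside the list were Ltbp3, which encodes a matrix protein that binds latent TGF-beta, and Podxl, the anti-adhesive sialomucin podocalyxin. Ltbp3 rose from 236, 241 and 243 CPM to 331, 319 and 329 CPM (0.44 ± 0.04, adjusted p = 3.4e-06). Podxl rose from 56.7, 54.2 and 59.4 CPM to 79.8, 80.3 and 81.4 CPM (0.50 ± 0.04, adjusted p = 4.84e-07).

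Genes known as targets of YAP and TAZ did not fall as a group. Of 24 members 20 were tested, 8 rose and 1 fell (45% called against 10.7% of all genes), and the median log2 fold change was 0.105. The number that rose was 5 without control replicate 1, without TAZ siRNA replicate 1 or without TAZ siRNA replicate 3, and without TAZ siRNA replicate 2 the number that fell was 3. Axl, a receptor tyrosine kinase, rose from 21.9, 23.4 and 21.9 CPM to 32.8, 28.9 and 32.1 CPM (0.48 ± 0.08, adjusted p = 0.000749). Ajuba, a LIM protein that inhibits the LATS kinases, rose by 0.20, Arhgef17, a guanine nucleotide exchange factor, by 0.17 and the kinase Lats2 by 0.19.

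The classic reporter genes of the pathway moved by at most 0.20 on the log2 scale. Ccn2, connective tissue growth factor, was at 84.9, 94.3 and 92.7 CPM and then at 104, 102 and 106 CPM (0.20 ± 0.05, adjusted p = 0.0188). Leaving out control replicate 1, TAZ siRNA replicate 1 or TAZ siRNA replicate 3 gave adjusted p-values of 0.108, 0.0601 and 0.0749. Ccn1 was at 136, 148 and 159 CPM against 147, 140 and 149 CPM (-0.02 ± 0.11, adjusted p = 0.932), and the groups overlapped. Ankrd1, a nuclear ankyrin repeat protein, had 0.13 with an adjusted p of 0.306. Amotl2, an angiomotin that binds YAP, had 0.13 with an adjusted p of 0.0227, and 0.115, 0.0618, 0.0938 and 0.073 without control replicate 1 or 3 or TAZ siRNA replicate 1 or 3. Its adjusted p was 0.0521 with no low-count filter.

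The exception that fell was Tgfb2, the ligand TGF-beta 2, at 8.26, 9.64 and 9.16 CPM and then at 5.54, 7.73 and 5.87 CPM (-0.51 ± 0.10, adjusted p = 0.00381). Among 24 tested Hippo components and TEAD factors Wwtr1 was the 1 that fell, and 6 rose by at most 0.19 (29.2% called against 10.7% of all genes). With no low-count filter 2 rose, and without any 1 of the 6 libraries between 1 and 3 did.

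TEAD factors bind the motif GGAATG, which on the opposite strand reads CATTCC, and promoters of 2 of the reporter genes are shown with these letters in capitals, in the same 250-base window.
Ankrd1, chr19:36119845-36120094, minus strand: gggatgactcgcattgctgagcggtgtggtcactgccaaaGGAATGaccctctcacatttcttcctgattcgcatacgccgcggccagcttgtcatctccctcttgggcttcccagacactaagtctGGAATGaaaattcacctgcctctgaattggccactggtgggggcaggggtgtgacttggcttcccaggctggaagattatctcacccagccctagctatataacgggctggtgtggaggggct
Amotl2, chr9:102717554-102717803, plus strand: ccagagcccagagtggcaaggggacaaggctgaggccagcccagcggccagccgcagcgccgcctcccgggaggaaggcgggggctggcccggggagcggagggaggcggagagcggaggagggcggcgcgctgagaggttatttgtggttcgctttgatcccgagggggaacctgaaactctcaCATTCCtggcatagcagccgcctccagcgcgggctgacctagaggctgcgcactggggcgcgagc

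Ankrd1 held 2 matches, 210 and 123 bases before the start, and Amotl2 1, 65 bases before it. The motif was in 12.2% of the 300-base promoters of all genes tested, in 9.87% of those called lower, in 15% of those called higher and in 8 of 14 matched promoters of the YAP and TAZ target list (57.1%). With the 5-base core GGAAT, searched on both strands, the first 3 shares were 32.4%, 30.4% and 31.4%. For Aqp2, whose promoter is known for its cAMP response, the window holds 1 match to the CREB core TGACG on either strand, 211 bases before the start, and 31.7% of all promoters hold such a match in 300 bases.
Aqp2, chr15:99578806-99579055, plus strand: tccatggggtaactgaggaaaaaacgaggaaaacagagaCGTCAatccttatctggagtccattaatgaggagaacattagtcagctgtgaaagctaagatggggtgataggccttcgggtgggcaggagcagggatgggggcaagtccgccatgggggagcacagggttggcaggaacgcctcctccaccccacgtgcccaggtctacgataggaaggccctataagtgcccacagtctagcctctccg

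Of 29 genes of the actin cytoskeleton and focal adhesions 7 rose and 1 fell (27.6% against 10.7% of all genes). The genes with the smallest p-values were Tln1, which encodes talin, the link of integrins to actin (299, 292 and 285 CPM, then 352, 353 and 358 CPM, 0.28 ± 0.03), and the integrin chains Itgb4 (0.28) and Itga3 (0.26), which bind laminin. Their adjusted p-values were 3.25e-05, 7.59e-05 and 0.000164. Zyx, the focal adhesion protein zyxin, rose by 0.38 (adjusted p = 0.00112), Flna, filamin A, by 0.29 and Cnn2, calponin 2, by 0.31. Without control replicate 1 or TAZ siRNA replicate 3, 0 members fell.

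Keratins and desmosomal genes moved both ways, 6 up and 3 down of 17 tested (52.9% against 10.7% of all genes), with 3 up without control replicate 2. Krt19, a keratin of simple epithelia, fell from 243, 249 and 228 CPM to 186, 168 and 174 CPM (-0.45 ± 0.05, adjusted p = 1.75e-05). Krt23 fell from 5.92, 5.26 and 5.19 CPM to 2.42, 2.95 and 2.01 CPM (-1.15 ± 0.22, adjusted p = 0.00229), and Krt18 fell by 0.20. Evpl, envoplakin, rose from 77.5, 73.4 and 71.5 CPM to 94.5, 95.1 and 92.7 CPM (0.34 ± 0.04, adjusted p = 1.57e-05), and Jup, plakoglobin, rose by 0.17. Of 25 junction and polarity genes 3 rose and 3 fell (24%). Cldn8, a barrier-forming claudin of the collecting duct, fell from 61.4, 57.1 and 56.8 CPM to 41.5, 49.6 and 40.4 CPM (-0.41 ± 0.09, adjusted p = 0.00982), with TAZ siRNA replicate 2 the highest of its group again. The number of junction genes that rose was 1 without control replicate 2, control replicate 3 or TAZ siRNA replicate 1, and DESeq2 called 6 lower.

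Cholesterol genes leaned upward. Of 24 tested genes of cholesterol synthesis and uptake 6 rose and 0 fell (25% against 10.7% of all genes), and all 24 fold changes were above 0, with a median of 0.104. Dhcr7, an enzyme of the last steps of cholesterol synthesis, went from 31.4, 30.4 and 30.6 CPM to 38.5, 35.9 and 40.7 CPM (0.32 ± 0.05, adjusted p = 0.000876), and the groups did not overlap. Srebf2, the transcription factor that drives the pathway, rose by 0.18 (adjusted p = 0.00183). Of 14 fatty acid synthesis genes 4 rose and 2 fell (42.9%): Fasn, fatty acid synthase, rose by 0.27 (adjusted p = 0.000147) and Elovl6, an elongase, fell by 0.33 (adjusted p = 0.000304). Cpt1a, which admits fatty acids to mitochondria for oxidation, fell from 416, 416 and 389 CPM to 309, 310 and 288 CPM (-0.43 ± 0.04, adjusted p = 3.11e-06).

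Markers of intercalated cells, the acid-secreting and base-secreting neighbours of principal cells, fell in 5 of 10 tested members of 17, or 50%, against 4.97% of all genes called lower. Car2, cytosolic carbonic anhydrase, went from 88.5, 87.0 and 85.2 CPM to 71.5, 70.7 and 68.0 CPM (-0.31 ± 0.04, adjusted p = 0.000132). Atp6v0a4, a proton pump subunit, fell by 0.36, the ammonia channel Rhcg by 0.42 and Aqp6 by 0.45 (adjusted p = 0.00411, 0.0104 and 0.0103). Atp6v1b1, another proton pump subunit, overlapped between the groups, at 95.3 to 103 CPM with control siRNA and 93.2 to 105 CPM with TAZ siRNA. The summed level of the list was 317 to 330 CPM with control siRNA and 263 to 288 CPM with TAZ siRNA, and the defining markers Foxi1, Slc26a4, Kit, Insrr and Atp6v1g3 were at 0 in all 6 libraries. In bulk RNA fewer cells of a type and less RNA per cell cannot be told apart.

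Defining markers of other cell types were in part at 0. Of 13 immune markers 8 were at 0, of 11 fibroblast markers 6, of 10 endothelial markers 3 and of 18 markers of other nephron segments 10. The summed immune list stood at 33.5 to 37.7 CPM with control siRNA and 43.2 to 45.6 CPM with TAZ siRNA, most of it Csf1r, the CSF1 receptor (31.8, 28.9 and 32.6 CPM, then 38.4, 39.9 and 40.5 CPM, 0.35 ± 0.06, adjusted p = 0.000505). Summed fibroblast markers were at 4.67 to 5.70 and 4.97 to 6.06 CPM, endothelial markers at 10.3 to 12.8 and 11.5 to 12.5 CPM, and markers of other segments at 213 to 230 and 211 to 222 CPM. That last sum holds members that went opposite ways: Lrp2, the endocytic receptor megalin, fell from 168, 154 and 152 CPM to 125, 135 and 124 CPM (-0.30 ± 0.05, adjusted p = 0.00043), and Podxl rose by 0.50 (adjusted p = 4.84e-07). Their part in the other results was not tested.

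Stress and cytokine genes split. Of 24 NRF2 and glutathione genes 1 rose and 6 fell, 29.2% against 10.7% of all genes (3 fell without control replicate 2 or TAZ siRNA replicate 3, and 0 rose without control replicate 1 or 3 or TAZ siRNA replicate 1 or 3). The metal-binding Mt2 went from 147, 176 and 147 CPM to 118, 102 and 112 CPM (-0.50 ± 0.07, adjusted p = 0.000241). The glutathione genes Gsta4, a transferase, and Gpx1, a peroxidase, fell by 0.62 and 0.24 (adjusted p = 0.000761 and 0.000824). Of 24 tested NF-kappaB and cytokine genes 5 rose and 4 fell (37.5%), and 3 and 2 did without control replicate 2 or 3 or TAZ siRNA replicate 1 or 3. Nfkbiz, a nuclear regulator of the pathway, changed by -0.35 ± 0.04 (adjusted p = 5.14e-05), with no overlap between the groups. The growth factor Csf1 and the chemokine Cxcl16 rose, by 0.26 and 0.51 (adjusted p = 0.000282 and 0.000602), and complement C3 fell by 0.31 (adjusted p = 0.00388).

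Of 26 genes of the unfolded protein and integrated stress response 1 rose and 4 fell (19.2% against 10.7% of all genes), among them Xbp1, its central transcription factor (-0.22, adjusted p = 0.00441). With 1 library left out 2 or 3 fell. The gene that rose was Atf3, which is also the rise among the cAMP and CREB targets and is an immediate early gene. Of 25 genes of the TGF-beta and BMP pathway 2 rose and 4 fell (24%), of 26 of the EGF family and ERK feedback 2 rose and 2 fell (15.4%), and of 22 immediate early genes 2 rose and 5 fell (31.8%). The last count was 2 without control replicate 2 or TAZ siRNA replicate 1 or 3 and 1 without control replicate 3, and 2 TGF-beta genes fell without any 1 of these 4 libraries. Tgfb1 rose by 0.33 and Tgfb3 fell by 0.33 (adjusted p = 0.00143 and 0.00664), Nrg1, an ERBB ligand, rose by 0.39 and the receptor Fgfr2 fell by 0.34 (adjusted p = 0.0015 and 0.00197). Of 14 tested WNT genes Wnt10a (23.6, 25.6 and 25.9 CPM, then 38.0, 33.9 and 40.5 CPM, 0.58 ± 0.08) and Wnt7b (0.26) rose, with adjusted p-values of 8.6e-05 and 0.000354, and 0 fell (14.3% called).

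In 8 further lists 4% to 13.6% of the members tested were called, against 10.7% of all genes. S phase genes had 2 higher and 1 lower of 24, mitosis genes 2 and 1 of 22, p53 targets 2 and 0 of 24, interferon genes 3 and 0 of 27, and Notch genes 2 and 0 of 17. Oxidative phosphorylation had 0 higher and 1 lower of 25, cytosolic ribosomal proteins 0 and 3 of 36 and the small RNA machinery 0 and 1 of 12. Rrm2, a ribonucleotide reductase subunit, rose by 0.21 (adjusted p = 0.000561), and the stress gene Sesn1 by 0.23 (adjusted p = 0.00268). The ribosomal count was 0 without control replicate 2 or TAZ siRNA replicate 2 or 3, and the interferon count 1 without control replicate 2 or 3 or TAZ siRNA replicate 1 or 3 and 6 without TAZ siRNA replicate 2. Of the other segment, fibroblast, endothelial and immune lists 5, 4, 5 and 4 members were tested, with 1 and 1, 0 and 1, 0 and 0, and 1 and 0 called higher and lower (40%, 25%, 0% and 25% of so few).

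**Figure D4:**
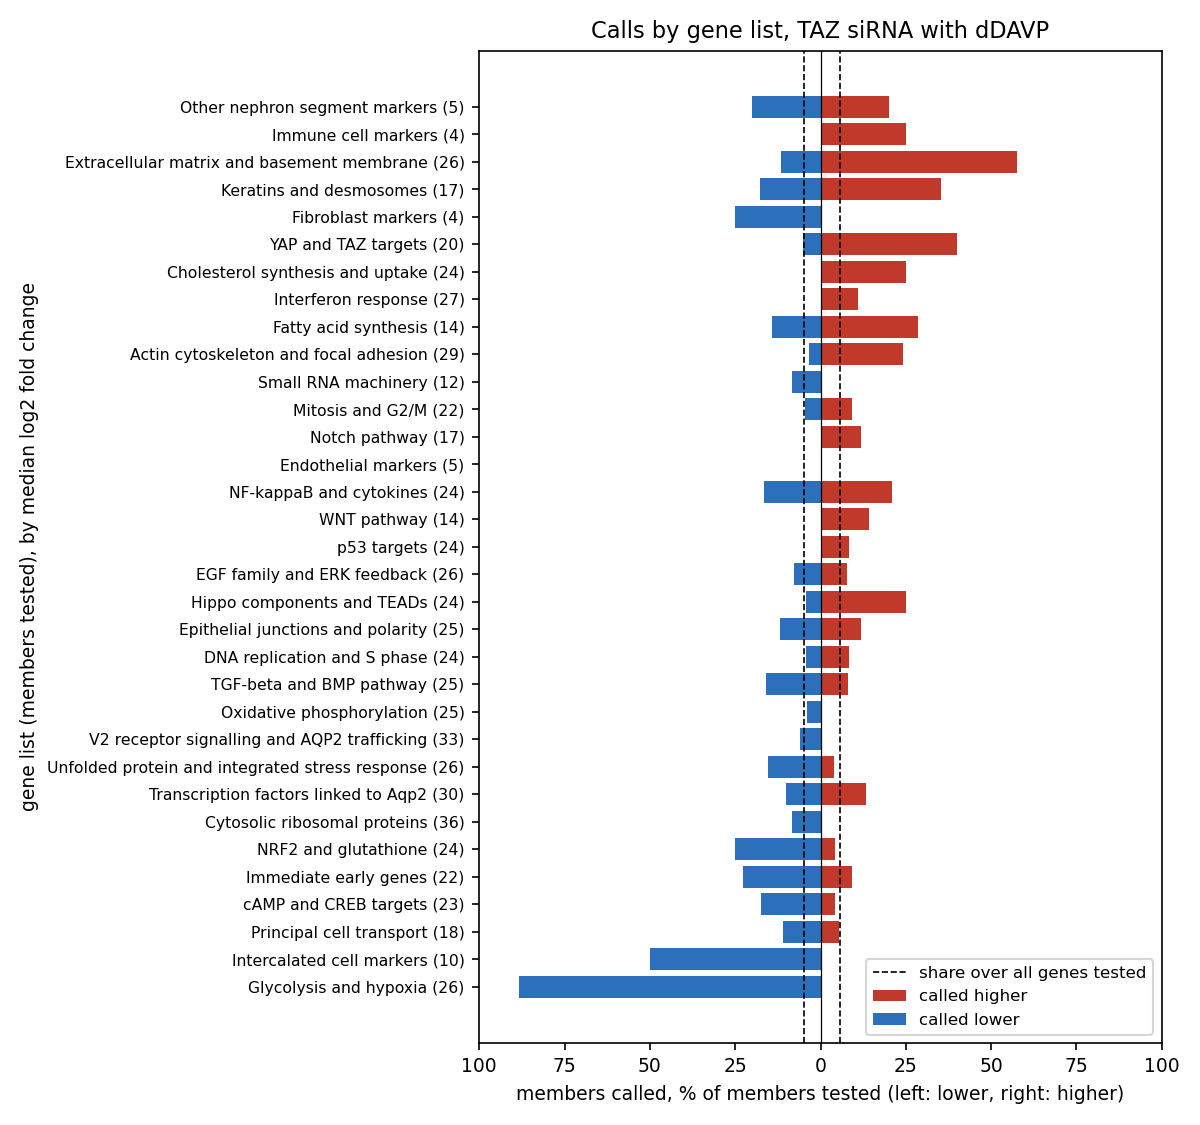
For each gene list (members tested in brackets, ordered by median log2 fold change) the bars give the % of tested members called lower (blue, to the left) and higher (red, to the right), and the dashed lines the shares over all genes tested, 4.97% and 5.77%. Glycolysis and hypoxia stands out on the lower side (88.5%) and the extracellular matrix list on the higher side.

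Called genes with at least 1 CPM in 1 of the groups and no overlap between libraries were ranked by size. The largest fall was that of Pamr1, a secreted peptidase-like protein (chromosome 2, 102550021 to 102643041). It was at 5.15, 6.70 and 5.86 CPM and fell to 1.01, 1.42 and 1.17 CPM (-2.31 ± 0.18, adjusted p = 1.78e-06), or 20.3% of the control mean. Cxcl15, a chemokine (-2.19), Scube3, a secreted EGF-domain protein (-1.92), Grin1, an NMDA receptor subunit (-1.53), Slc28a3, a nucleoside transporter (-1.50), and Adh1, an alcohol dehydrogenase (-1.50), were also among the 15 largest falls. Others were Aqp2, Egln3, Bnip3, Ankrd37, the phosphodiesterase gene Pde10a (-1.41), Trmt61b (-1.32), Gm10451, a long noncoding RNA (-1.70), and Gm16439, a pseudogene (-1.65). Reads of a pseudogene or a retrogene can come from its parent gene, so Gm16439, Gm8129, Stmn1-rs2 and Rps27rt are uncertain. The adjusted p of Pde10a was 0.00862, and 0.0581 without control replicate 2. Scube3 was at 1.54, 1.55 and 2.06 CPM and fell to 0.352, 0.319 and 0.706 CPM. Cxcl15 was at 1.253, 1.185 and 1.256 CPM and fell to 0.1511, 0.361 and 0.3087 CPM. The abundant genes B3gnt7, Ggt1 and Cpt1a fell with small p-values as well: B3gnt7, a glycosyltransferase (37.0, 32.4 and 33.9 CPM, then 15.7, 17.2 and 14.0 CPM, -1.14 ± 0.09), Ggt1, gamma-glutamyltransferase (-0.70 ± 0.07), and Cpt1a.

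The 15 largest rises lay between 0.72 and 1.15, and 9 of them were at under 5 CPM in each library. The gene listed as ccdc198 went from 4.17, 4.34 and 4.61 CPM to 8.90, 7.67 and 7.80 CPM (0.90 ± 0.10, adjusted p = 2.21e-05). Hsd17b14, a steroid dehydrogenase, rose by 0.87, Npr3, the clearance receptor of natriuretic peptides, by 0.79, Crb2, a Crumbs polarity protein, by 0.75, Ephb6, an Eph receptor, by 0.74 and Lmcd1, a LIM-domain protein, by 0.72. Npr3 was at 6.18, 5.38 and 7.36 CPM and rose to 11.8, 10.5 and 10.4 CPM. The 9 low ones were Gm8129 (1.15, the largest), Rps27rt (0.83), Gm4258 (0.80), 2010110K18Rik (0.78), Gm46265 (0.77), Ccdc141 (0.75), Psapl1 (0.74), LOC115489102 (0.74) and Stmn1-rs2 (0.72). Of these 9, Gm4258 kept its call in every fit, and each of the others lost it without 1 library or more, at adjusted p-values of up to 0.178. Msrb3, a methionine sulfoxide reductase, was the most certain rise beside Podxl, from 45.2, 45.5 and 43.7 CPM to 64.7, 62 and 64 CPM (0.51 ± 0.04, adjusted p = 4.84e-07).

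The vehicle libraries, which share no sample with this comparison, allowed the same effect to be read without dDAVP. There TAZ siRNA changed 1004 genes (6.3% of those tested), 508 higher (3.19%) and 496 lower (3.11%). Both treatments called 584 genes, which is 34.1% of the calls with dDAVP and 58.2% of those with vehicle, and 581 of the 584 went the same way. The genes that went opposite ways were Abcc3, Cxcl5 and Lyar. Cxcl5 lost its call with dDAVP without any 1 of the 6 libraries (adjusted p 0.0617 to 0.149), in DESeq2 (0.0528) and with no low-count filter (0.0799), and Lyar without any but control replicate 1 (0.0546 to 0.117). Among all 1711 genes called with dDAVP, 1575 (92.1%) had the same sign with vehicle. Genes called lower with dDAVP had a median of -0.233 with dDAVP and -0.147 with vehicle, and genes called higher had 0.213 and 0.109. These genes were picked by their values with dDAVP, so larger changes there are expected from the choice alone.

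Taking the genes by their vehicle contrast gives a reading in which the fold changes with dDAVP did not choose the genes. That contrast came from the fit of all 12 libraries, so the dDAVP libraries entered its filter, scaling and spread. The 496 genes called lower with vehicle had median log2 ratios to the control mean with dDAVP of -0.211, -0.159 and -0.224 in TAZ siRNA replicates 1, 2 and 3, and the 508 called higher had 0.194, 0.178 and 0.21. In both sets replicate 2, which held the most Wwtr1, lay nearest the controls. That library also had the strongest trend with transcript length of its group, and the part of either in these medians was not tested. In the glycolysis and hypoxia list 22 of 26 tested members were lower and 0 higher with vehicle, with a median of -0.46. In the extracellular matrix list 8 of 26 were higher and 3 lower with vehicle (median 0.0967), and in the cholesterol list 14 of 24 were higher. Among 20 YAP and TAZ targets 5 were higher and 2 lower with vehicle (median -0.0105). Over all genes tested 3.19% were higher and 3.11% lower with vehicle.

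The difference between the effects was called for 5 of 15932 genes, or 0.0314% (1295 at an unadjusted p under 0.05). DESeq2 called 87. TAZ siRNA raised Col4a4 under dDAVP. With vehicle the gene stood at 284, 288 and 272 CPM with control siRNA and 306, 294 and 279 CPM with TAZ siRNA. The effects of TAZ siRNA were 0.47 with dDAVP and 0.06 with vehicle (adjusted p of the difference 0.00374). Col4a1 had 0.33 and 0.04 (adjusted p of the difference 0.044), and Col4a2, Col4a3 and Scnn1a had an adjusted p of the difference of 0.059 each. Slc39a4, a zinc importer, was at 106, 106 and 102 CPM with control siRNA and dDAVP and fell to 78.8, 84.9 and 74.5 CPM (-0.40), while vehicle gave 0.13 (adjusted p of the difference 0.00374). Abcc3, an organic anion exporter, went from 19.7, 21.6 and 19.6 CPM to 14.1, 15.1 and 14.4 CPM with dDAVP (-0.48) and from 7.90, 8.13 and 8.29 CPM to 9.12, 10.1 and 9.59 CPM with vehicle (0.24). The chemokine Cxcl5 had -0.40 with dDAVP and 0.83 with vehicle (adjusted p of the difference 0.032). With 1 library left out the difference was lost for Col4a1 in 9 of 12 fits (adjusted p 0.0561 to 0.165) and for Cxcl5 in 7 (0.0526 to 0.15). In each of the 5 genes all TAZ siRNA libraries with dDAVP lay between the control libraries with vehicle and those with dDAVP, which are the same control libraries that enter the fold change.

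**Figure D5:**
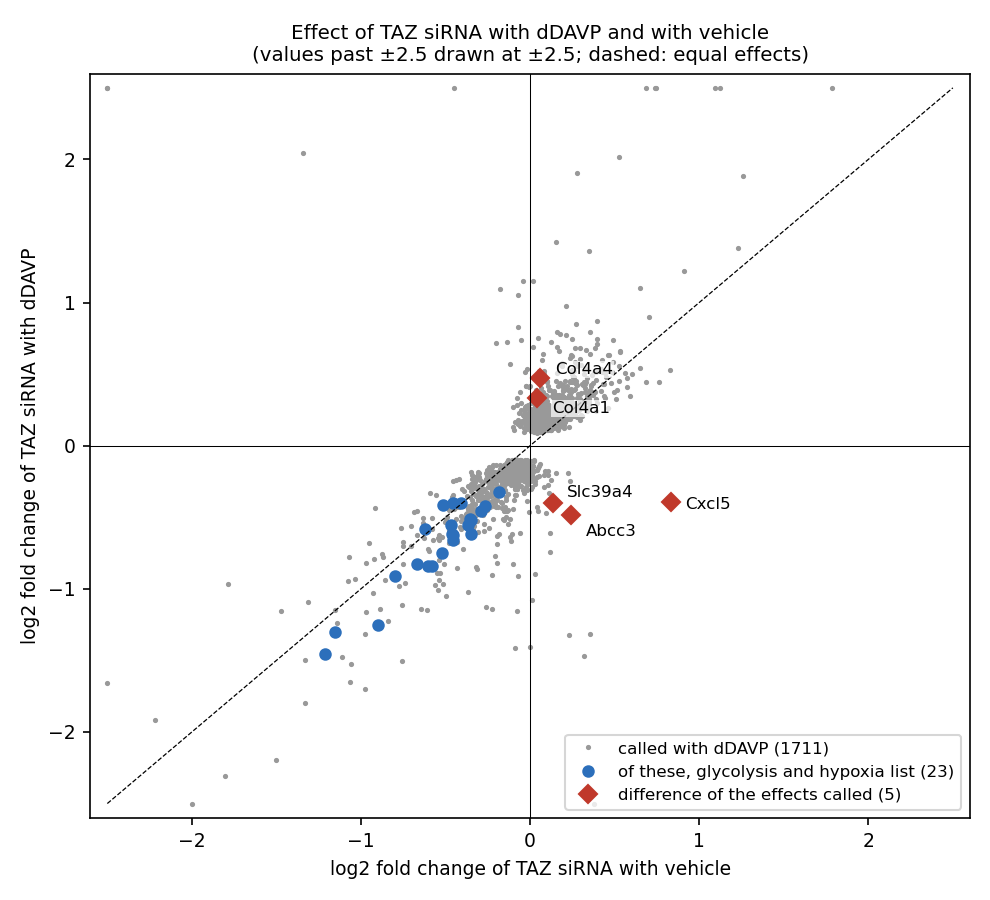
Each grey point is 1 of the 1711 genes called with dDAVP, with the log2 fold change of TAZ siRNA under vehicle on the x axis and under dDAVP on the y axis, and the dashed line marks equal effects. The 23 called genes of glycolysis and hypoxia (blue) all lie below 0 on the y axis, and the 5 genes whose effects differed (red) lie off the line.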

How the data were processed

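RNA-seq of 12 libraries (4 groups of 3) was deposited as gene and transcript tables on mm10. Per the file headers, the authors deposited a read count, an FPKM and a TPM for each gene and library. The deposited counts are estimated counts: they equal FPKM times length times 1 factor per library, rounded up, so that each carries up to 1 count of rounding. The deposited FPKM values, scaled by the authors for transcript length and library size, served to check this, and the authors' TPM values served to set levels of different genes side by side. The submitters' processing notes name Bowtie 0.12.2, mm8 and mm10 without their roles, and for the counting tool the sources used here give no name. Per the labels' protocols more than 1 library kit is named, so counts of overlapping genes on opposite strands are uncertain. Columns spelled dDAUP were matched to the dDAVP samples by siRNA, treatment and number.

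Of 45777 genes 24656 had a count, and 15932 passed edgeR's filterByExpr (minimum count 10). All 12 libraries were fitted in 1 model with edgeR 4.0.16 in R 4.3.3 (TMM factors, robust quasi-likelihood F test, 1 term per group), with Benjamini-Hochberg adjustment over all genes tested and a threshold of 0.05. The SE is the log2 fold change divided by the square root of F. The fit was tested on simulated data. In these libraries 3 counts are 0.0488 to 0.0665 CPM. Medians per library used log2(CPM + 0.1). Alternatives were DESeq2 1.42.0, limma-voom (limma 3.58.1), RLE size factors, no low-count filter, a replicate block, the 2 groups alone and each library left out in turn.

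The members, the 33 gene lists and the tests were chosen with earlier results of these data known. Some genes are in more than 1 list, so the counts of different lists are not separate results. Genes were named by rule: a set of always-named genes, the 15 largest rises and falls with at least 1 CPM and no overlap between libraries, the 5 of smallest p each way, the called differences between treatments, and up to 4 members of smallest p per list. Further members of glycolysis, matrix and the other lists (Hk1, Hif1a, Pgk1, Lama5, Fn1, Flna, Krt18 and others), the cell markers and the motifs ACGTG and TGACG were added after values had been seen. Some genes that the rule names are not reported here. Promoters are from RefSeq (GRCm38.p6), and 9964 tested genes had one at the start of their main transcript. A further 1598 lay over 50 bases away and were left out.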

Additional observations from a re-analysis of the deposited data

Results flagged for a closer look

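The effect of TAZ siRNA differed between dDAVP and vehicle in 5 genes by the interaction term of the edgeR fit. The effect with dDAVP minus that with vehicle, on the log2 scale, was -0.725 for Abcc3, 0.41 for Col4a4 and -0.533 for Slc39a4, each with an adjusted p of 0.00374. It was -1.23 for Cxcl5 (adjusted p = 0.032) and 0.292 for Col4a1 (adjusted p = 0.044). The difference for Col4a1 was not called with RLE size factors (0.0558) or the replicate block (0.0631).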

How the results depend on the processing

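Wwtr1 and the 23 or 24 falls of the glycolysis and hypoxia list were called in each alternative fit. Of 164 named genes called, 124 were called in every setting that gave them an adjusted p. A further 28 lost their call only when 1 library was left out, and 0 changed direction. Cxcl15 and Pde10a had an adjusted p in 11 of 12 settings. With 1 library left out the number of called genes was 1049 to 1625 (534 to 787 higher and 491 to 838 lower), and 58.1 to 78.4% of the 1711 genes were called again. DESeq2 called 2086 genes. The number of genes whose effect differed between dDAVP and vehicle was 87 in DESeq2, 12 with no low-count filter and 3 to 16 with 1 library left out. The 5-base TEAD core was in 30.4% of the promoters of genes called lower, a shorter motif that occurs more often by construction. Libraries of the same number did not deviate together (correlations -0.217, -0.285 and 0.111). The deviations also followed transcript length, in opposite directions in the 2 libraries of replicate 1 and in those of replicate 2. In replicate 3 both libraries went weakly against length (-0.138 with control siRNA and -0.259 with TAZ siRNA). The correlations between libraries of the same number therefore cannot tell whether the numbers pair the samples. With the replicate block, which treats the numbers as pairs, 1690 genes were called, 1597 of them shared, 895 higher and 795 lower. There 6 genes differed between treatments, and Wwtr1 changed by -0.54. Genes under 1 CPM rest on few counts, which limits Aqp2 with vehicle, Adm and Scnn1b.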
